A study of Mus musculus with 16 samples.

Results

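Interstitial collagens and matrix proteins were followed in the mouse myoblast line C2C12 through 41 genes. They were chosen from a list of fibrillar and associated collagens and of matrix proteins. The rule held no measured value, but earlier results of these data were known when it was set. The list holds 7 fibrillar collagen chains, 3 chains of collagen VI, 8 other associated collagen chains, 4 genes of fibronectin and the elastic fibre, 5 matricellular proteins, 5 proteoglycans, 4 lysyl oxidases, and 5 matrix proteinases and their inhibitors. All 41 were found among the 24497 genes measured, and 39 were among the 14972 genes with enough counts to be tested. Poly(A) RNA was sequenced in 16 libraries, in 8 groups of 2, from 4 lines that each grew in growth medium (GM, proliferating) or differentiation medium (DM, differentiating). Per the labels, the line derives from skeletal muscle of C57BL/6 mice of postnatal day 21. The 4 lines are WT EV (wild type with a control vector), WT ov MUNC (wild type, with spliced MUNC expressed from the vector; MUNC is a noncoding RNA made near Myod1), MYOD-/- EV and MYOD-/- ov MUNC. The vectors were stably transfected, and MYOD-/- cells were made with CRISPR-Cas9 and screened as single cells, so a MYOD-/- line may descend from 1 cell. Each line stands for 1 transfected culture as far as the labels tell. Nothing there tells if the paired libraries of a group came from separate cultures. A p-value here thus reflects the spread among these libraries alone, which may be technical.

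Muscle fibres lie in a connective tissue whose fibrils are built from collagens I, III and V, with collagen VI around the cells and fibronectin, microfibrils and small proteoglycans between them. Collagen chains are folded in the endoplasmic reticulum, trimmed outside the cell and cross-linked by lysyl oxidases. Matrix metalloproteinases cut the finished matrix and TIMPs inhibit them. Matricellular proteins such as tenascin-C and the thrombospondins hold no load but change how cells attach. Myoblasts make part of this matrix themselves, and fibroblasts make most of it in the tissue.

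The libraries held 35832002 to 107732971 estimated counts. Levels are given as counts-per-million (CPM) after TMM scaling, changes as log2 fold change ± SE from edgeR's quasi-likelihood fit, and a change was called at a Benjamini-Hochberg adjusted p below 0.05 over all genes tested. Myod1, the gene named in the genotype label, went against that label. It was at 0.0136 to 0.291 CPM in WT EV, 1.7 to 4.06 CPM in WT ov MUNC, 11.9 to 33.1 CPM in MYOD-/- EV and 4.18 to 16 CPM in MYOD-/- ov MUNC. Which part of the gene was deleted is not stated in the labels, and RNA outside it checks nothing. Lines are therefore named by their labels throughout, and a direction between genotypes is one between libraries labelled so. MUNC (Gm45923) was at 1821 to 2669.7 CPM in WT ov MUNC, 43 to 132 CPM in MYOD-/- ov MUNC and 1.15 to 12.4 CPM in the EV lines. In all 8 groups replicate 2 held far more RNA of Zrsr1, a splicing factor gene, with 14626 to 146925 CPM against 72.9 to 326 CPM in replicate 1.

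Muscle differentiation markers (10 genes) summed to 15.4 to 36.1 CPM in GM. In DM they summed to 43.8 to 54.9 CPM in WT EV, 65.3 to 143 CPM in WT ov MUNC, 537 to 582 CPM in MYOD-/- EV and 642 to 808 CPM in MYOD-/- ov MUNC. Mef2c was below 1 CPM in all libraries. In WT EV in DM 5 of the 10 were below 1 CPM in both libraries, against 1 in each other line in DM. In GM 5 to 8 were. Fibroblast-like markers (12 genes) summed to 1643 to 3305 CPM over the 16 libraries, with Thy1 and Tcf21 below 1 CPM in all of them. The 6 myofibroblast and smooth muscle markers summed to 229.8 to 332 CPM in WT EV in DM and 280 to 2381 CPM in the other groups, with Myh11 and Myocd below 1 CPM. Leukocyte markers summed to 0.648 to 3.82 CPM and endothelial markers to 0.174 to 16 CPM, and the 5 adipocyte markers to 5.85 to 44.6 CPM. The 6 bone markers summed to 44.2 to 102 CPM with 5 of them below 1 CPM throughout, and the 8 tendon and cartilage markers to 81 to 184 CPM with 4 below 1 CPM. The part of these sums in the results on matrix genes was not tested. In such bulk RNA, fewer cells of a type and less RNA per cell cannot be told apart.

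Promoters were available in the RefSeq promoter table (GRCm38.p6) for 25 of the 41 genes. Shown here, 5′ to 3′ on the gene's strand, are the 250 bases before the start of 3 pairs that the results turn on: Col1a2 and Col3a1, chains of the main fibrils, Col6a1 and Col6a2, chains of collagen VI that rose on average in DM, and Tnc and Thbs2, which were low together in WT ov MUNC. Capitals mark matches, on either strand, to the 5 motifs searched, which are the TATA box TATAAA, the CCAAT box, the GC box GGGCGG, the E-box CAGCTG and the AP-1 site TGANTCA. The windows are chr6:4505368-4505617 (Col1a2) and chr1:45311288-45311537 (Col3a1) on the plus strand, and chr10:76726045-76726294 (Col6a1), chr10:76623631-76623880 (Col6a2), chr4:64047016-64047265 (Tnc) and chr17:14694263-14694512 (Thbs2) on the minus strand.
Col1a2: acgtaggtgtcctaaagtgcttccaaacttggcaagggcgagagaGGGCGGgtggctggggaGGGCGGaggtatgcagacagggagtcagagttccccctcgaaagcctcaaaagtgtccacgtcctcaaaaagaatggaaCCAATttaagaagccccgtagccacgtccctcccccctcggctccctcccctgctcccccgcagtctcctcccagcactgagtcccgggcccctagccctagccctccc
Col3a1: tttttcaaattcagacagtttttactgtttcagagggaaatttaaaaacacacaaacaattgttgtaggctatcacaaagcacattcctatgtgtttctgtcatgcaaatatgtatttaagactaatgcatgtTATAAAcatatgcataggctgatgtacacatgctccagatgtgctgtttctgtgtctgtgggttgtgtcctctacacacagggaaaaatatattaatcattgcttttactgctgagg
Col6a1: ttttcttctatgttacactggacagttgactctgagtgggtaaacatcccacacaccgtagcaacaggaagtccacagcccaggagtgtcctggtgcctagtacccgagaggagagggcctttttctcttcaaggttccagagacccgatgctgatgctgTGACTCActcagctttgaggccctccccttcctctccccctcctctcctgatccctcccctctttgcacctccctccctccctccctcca
Col6a2: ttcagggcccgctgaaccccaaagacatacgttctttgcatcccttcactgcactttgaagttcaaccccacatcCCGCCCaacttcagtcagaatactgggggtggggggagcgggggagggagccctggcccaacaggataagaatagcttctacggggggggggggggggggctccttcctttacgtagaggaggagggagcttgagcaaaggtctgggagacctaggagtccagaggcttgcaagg
Tnc: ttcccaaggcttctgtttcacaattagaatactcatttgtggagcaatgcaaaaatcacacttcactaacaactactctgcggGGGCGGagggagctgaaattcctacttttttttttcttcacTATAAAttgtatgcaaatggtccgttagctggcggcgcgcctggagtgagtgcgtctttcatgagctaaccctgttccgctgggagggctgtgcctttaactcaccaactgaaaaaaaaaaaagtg
Thbs2: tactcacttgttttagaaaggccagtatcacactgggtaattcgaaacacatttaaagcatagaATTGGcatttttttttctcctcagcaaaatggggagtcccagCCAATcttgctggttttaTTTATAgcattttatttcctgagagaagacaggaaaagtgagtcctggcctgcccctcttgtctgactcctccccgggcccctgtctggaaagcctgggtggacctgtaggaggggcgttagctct

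Among these windows, TATAAA stood in those of Col3a1, Tnc and Thbs2, and CCAAT in those of Col1a2 and Thbs2. GGGCGG stood in those of Col1a2, Col6a2 and Tnc, and TGANTCA only in that of Col6a1. Over the 25 matched genes, GGGCGG was in 18 (72%), against 32.7% of all 32851 promoters in the table. CCAAT was in 11 of 25 (44%, against 33.8%), TATAAA in 4 (16%, against 12.4%), CAGCTG in 5 (20%, against 13%) and TGANTCA in 1 (4%, against 6.75%). For each of the 25 genes 1 promoter was picked by its main transcript, while the 32851 were not picked so and include chromosome 18, so the shares compare unlike sets. These matches describe letters in a window and were not tested.

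Per length, in transcripts-per-million (TPM), the most abundant of the 41 was Fn1, which encodes fibronectin, with a mean of 1917 TPM over the 16 libraries. Sparc, a collagen-binding glycoprotein, followed with 1848 TPM, Col3a1 with 1463 TPM, Bgn (biglycan) with 1448 TPM and Thbs1 (thrombospondin 1) with 1327 TPM. The ranges of these 5 over libraries overlapped, from 458 to 4488 TPM for Fn1 to 491 to 2554 TPM for Thbs1, so their order is not fixed. Counts were few for Col11a1, Col14a1, Col15a1, Fbn2 and Eln (elastin), which stayed below 0.7 CPM in every library. Fbn2 and Eln did not pass the filter on low counts. Eln had 0 counts in 4 libraries, Lum (lumican) in 3, and Col8a2 and Col11a1 in 2 each, where a count of 0 allows up to 3 counts, or 0.028 to 0.0841 CPM. Together the 41 genes made up 0.816 ± 0.103% of all TPM in WT EV in GM and 1.37 ± 0.42% in DM (SD, n = 2). They made up 0.818 ± 0.0764% and 2.31 ± 0.319% in WT ov MUNC, 0.616 ± 0.155% and 1.91 ± 0.342% in MYOD-/- EV, and 0.634 ± 0.106% and 1.86 ± 0.428% in MYOD-/- ov MUNC.

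**Figure D1:**
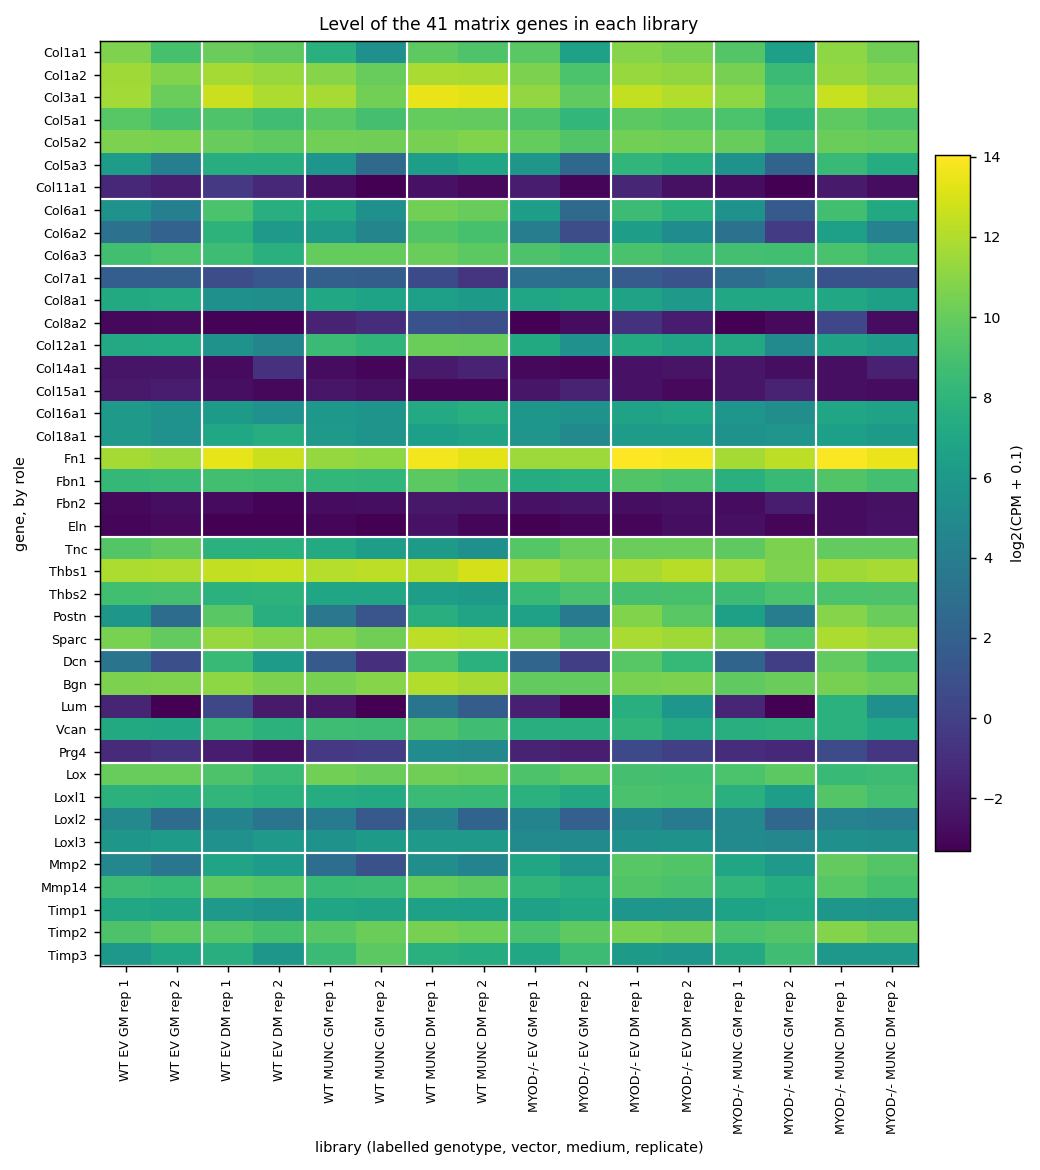
Level of each of the 41 genes in each of the 16 libraries, coloured by log2(CPM + 0.1), with genes ordered by role and white lines between roles and groups. Fn1, Col3a1, Col1a2, Thbs1, Sparc and Bgn are bright throughout, Fbn2 and Eln are dark throughout, and Dcn, Postn, Lum, Col6a1 and Col6a2 brighten from GM to DM.

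Differentiation was compared as DM minus GM in each line. The proteoglycan Dcn, the matricellular protein Postn, fibronectin and the proteinases Mmp2 and Mmp14 rose in all 4 lines. No member fell in all 4, while 1643 of the 14972 genes tested did. Of the 39 genes tested, 8 were called higher and 7 lower in WT EV, where 37.5% of all genes were called (19.2% higher and 18.3% lower). There were 15 higher and 4 lower in WT ov MUNC, against 39.8% of all genes (20.5% and 19.2%). In MYOD-/- EV 15 were higher and 4 lower, against 43.2% (23.5% and 19.7%), and in MYOD-/- ov MUNC 14 and 5, against 44.8% (24.4% and 20.4%). The median change of the 39 was 0.19, 1.19, 1.00 and 1.02 on the log2 scale, against 0.02, 0.06, 0.08 and 0.05 for all genes tested. With limma on log2(TPM + 1) 18 members were higher and 1 lower in WT ov MUNC, 21 and 2 in MYOD-/- EV and 24 and 2 in MYOD-/- ov MUNC. That scale raised the median change of all genes (12986 tested) by 0.10, 0.12, 0.17 and 0.21 in WT EV, WT ov MUNC, MYOD-/- EV and MYOD-/- ov MUNC. All genes then split into 3402 higher and 1913 lower in WT EV, 3931 and 1919 in WT ov MUNC, 4719 and 1908 in MYOD-/- EV, and 4902 and 1928 in MYOD-/- ov MUNC. In the average over the 4 lines 22 members were called higher and 8 lower, with 66.7% of all genes called (36.3% and 30.4%), or 6465 genes higher and 3002 lower with limma on log2(TPM + 1).

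These counts depended on single libraries. In WT EV 7 members were called without GM replicate 2. In WT ov MUNC 10 were called without GM replicate 2, 12 without DM replicate 1 and 12 without DM replicate 2. In MYOD-/- EV 10 were called without GM replicate 2 and 12 without DM replicate 1. In MYOD-/- ov MUNC 12 were called without GM replicate 2 and 10 without DM replicate 1. In the average over the 4 lines, 29 to 32 members were called when any 1 library was left out. By line, 5 of the 39 (12.8%) were called higher in all 4, against 9.72% of all genes tested, and 8 (20.5%, against 8.26%) were called higher in 3 of 4: Col6a2, Col16a1, Col18a1, Fbn1, Sparc, Lum, Prg4 and Loxl1. Among these 8, every line call of Sparc was lost without at least 1 library. Also lost so were the calls of Col18a1 and Loxl1 in WT ov MUNC and MYOD-/- EV, and of Col16a1 in MYOD-/- EV. The call of Prg4 in MYOD-/- ov MUNC was lost so too, and by limma on log2(TPM + 1) (adjusted p = 0.0508). In the MYOD-/- lines Prg4 reached at most 1.52 CPM. Limits for Col6a2, Fbn1 and Lum are given below.

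**Figure D2:**
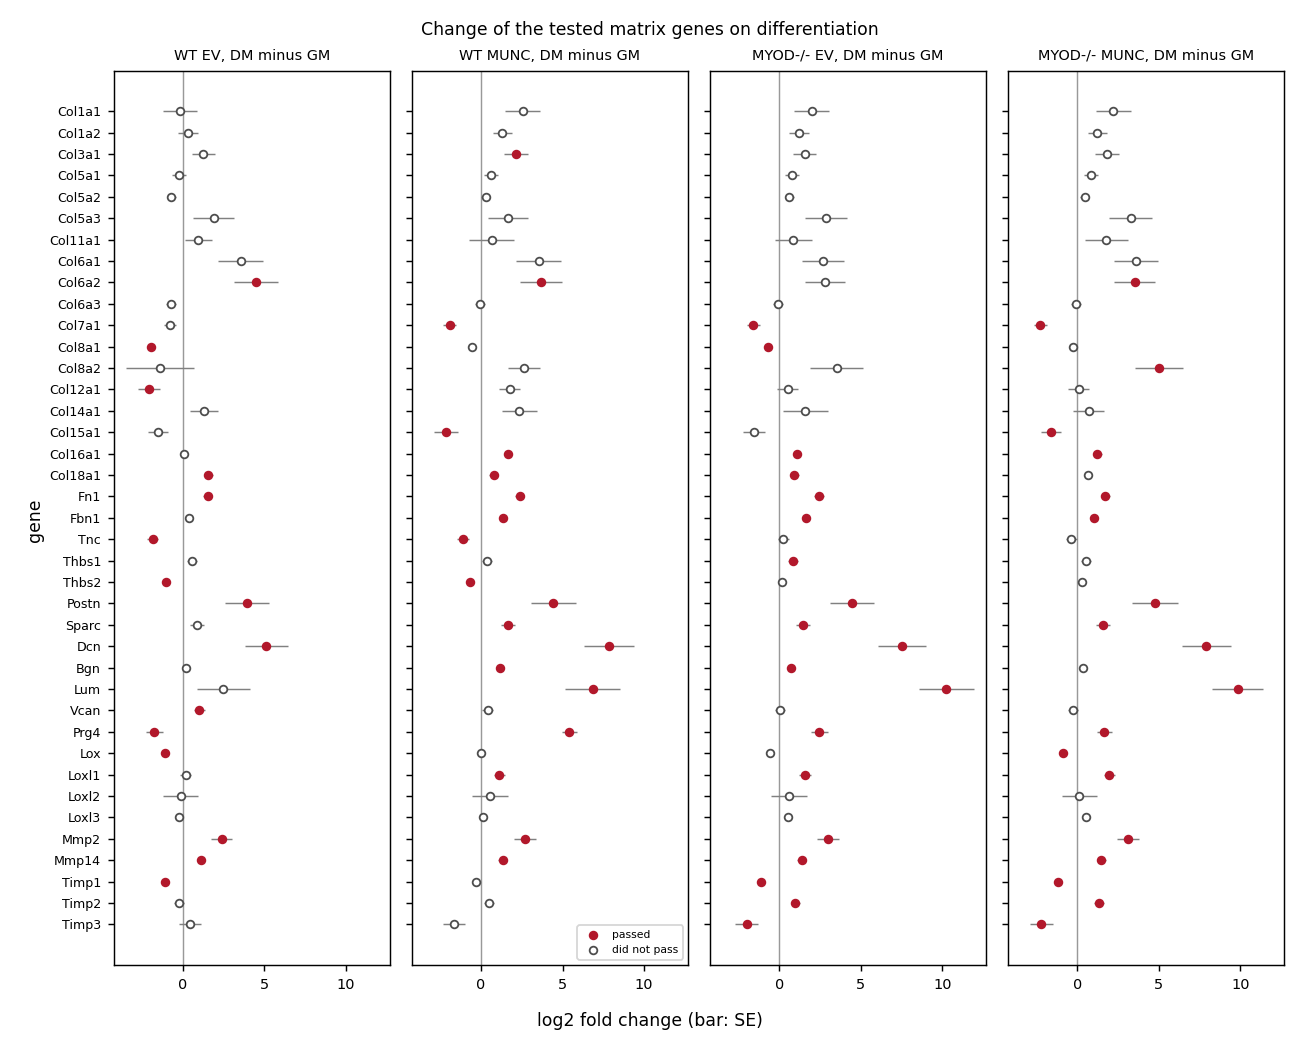
Log2 fold change from GM to DM for each of the 39 tested genes in each of the 4 lines, with bars for the SE, and filled points for changes with an adjusted p below 0.05. Points to the right of 0 are higher in DM, as for Dcn, Postn, Fn1, Mmp2 and Mmp14 in every panel, and Tnc and Thbs2 are filled on the left in the WT-labelled lines.

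Of the 7 fibrillar collagen chains, Col1a1, Col1a2, Col3a1 and Col5a3 rose on average over the lines, and 1 passed within a line. These are calls of the fit without a replicate block, and with it more chains passed within lines, as given in the closing section. Col3a1, the chain of collagen III (chr1:45311538-45349706), was at 3136 and 1077 CPM in GM and 6380.2 and 3749.8 CPM in DM in WT EV (replicates 1 and 2). It went from 3473 and 1282 to 11119 and 9815 CPM in WT ov MUNC, from 2363 and 889 to 5448 and 4100.1 CPM in MYOD-/- EV, and from 2152 and 562 to 5978 and 3692 CPM in MYOD-/- ov MUNC. Both DM libraries lay above both GM libraries in each line, and replicate 1 was the higher of the pair in all 8 groups. The average change was 1.70 ± 0.36 (adjusted p = 0.00148), with 1.35 and 2.41 within replicates 1 and 2. Within a line it was called only in WT ov MUNC (2.14 ± 0.74, adjusted p = 0.0384), and not without WT ov MUNC GM replicate 2 (adjusted p = 0.211), WT ov MUNC DM replicate 1 (0.114) or WT ov MUNC DM replicate 2 (0.0849).

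Col1a1 and Col1a2 encode the chains of collagen I (chr11:94936224-94953042 and chr6:4505618-4541543). Col1a1 was at 1637 and 513 CPM in GM and 1060.4 and 866 CPM in DM in WT EV, and at 205 and 42.4 and then 849 and 598 CPM in WT ov MUNC. In MYOD-/- EV it was at 760.0 and 96.3 and then 1894 and 1522 CPM, and in MYOD-/- ov MUNC at 655 and 86.9 and then 2194 and 1221 CPM. The media overlapped in WT EV and separated in the other 3 lines, with GM replicate 2 the lowest library of every line. The average change was 1.65 ± 0.53 for Col1a1 (adjusted p = 0.0162) and 1.02 ± 0.30 for Col1a2 (adjusted p = 0.0098), and neither was called within a line. Col5a3, a minor chain of collagen V, changed by 2.43 ± 0.63 on average (adjusted p = 0.00523), with 1.70 and 4.47 within the replicates. Col5a1 and Col5a2, the common collagen V chains, did not pass in any line or on average. Col11a1 was near the limit of detection.

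Collagen VI forms a beaded network around muscle cells from 3 chains. Col6a1 and Col6a2 lie close together on chromosome 10 (chr10:76708792-76726044 and chr10:76595756-76623630). Col6a1 went from 46.1 and 17.5 to 557 and 188 CPM in WT EV and from 158 and 41 to 1267 and 1023 CPM in WT ov MUNC. It went from 86.7 and 6.24 to 379 and 219 CPM in MYOD-/- EV and from 45 and 2.88 to 434 and 147 CPM in MYOD-/- ov MUNC. DM lay above GM in each line without overlap, and in DM both libraries of WT ov MUNC lay above those of the other lines. Averaged over lines Col6a1 changed by 3.34 ± 0.67 (adjusted p = 0.00101) and Col6a2 by 3.62 ± 0.64 (adjusted p = 0.000386). Within lines Col6a1 did not pass in the fit without a replicate block, with adjusted p from 0.051 to 0.121. With the block Col6a1 and Col6a2 each passed in 4 lines. Without it Col6a2 passed in WT EV, WT ov MUNC and MYOD-/- ov MUNC (adjusted p = 0.0208, 0.0388 and 0.0433). Each of these calls was lost without GM replicate 2 of the line and without its DM replicate 1. That of WT EV was also lost without GM replicate 1, and that of WT ov MUNC without GM replicate 1 or DM replicate 2. Col6a3, the long chain, lies on chromosome 1 and, without the block, was not called in any line (-0.24 on average, adjusted p = 0.186).

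Other associated collagens went both ways. Col18a1, whose C-terminal part is endostatin, rose on average by 0.98 ± 0.14 (adjusted p = 6.79e-05), and Col16a1, a collagen that sits on fibrils and microfibrils, by 1.02 ± 0.13 (adjusted p = 2.81e-05). Col7a1, the anchoring fibril collagen, lay at 3.39 to 11.1 CPM in GM and 0.536 to 3.09 CPM in DM and fell by 1.64 ± 0.19 on average (adjusted p = 1.75e-05). Col8a1, a short-chain network collagen, was at 148 and 161 CPM in GM and 41.7 and 39.8 CPM in DM in WT EV, without overlap. It fell by 1.92 ± 0.24 (adjusted p = 0.000125), and the average change was -0.85 ± 0.12 (adjusted p = 5.08e-05). Col12a1, which bridges fibrils, was at 145 and 153 CPM in GM and 47.6 and 23.4 CPM in DM in WT EV, but at 368 and 264 and then 1106 and 1016 CPM in WT ov MUNC. Its fall in WT EV (-2.07 ± 0.66, adjusted p = 0.0296) was not called without WT EV GM replicate 1 (adjusted p = 0.0723), WT EV GM replicate 2 (0.0872), WT EV DM replicate 1 (0.0533) or WT EV DM replicate 2 (0.167). Its change in WT ov MUNC was 1.75 ± 0.66 (adjusted p = 0.0535). Col14a1 and Col15a1 stayed below 0.45 CPM.

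Fibronectin rose in each line, and each call held whichever of the line's 4 libraries was left out. Fn1 (chr1:71585473-71653280) went from 3239 and 2728 to 10559.8 and 6527 CPM in WT EV and from 2449 and 2173 to 13538 and 10428 CPM in WT ov MUNC. It went from 2892 and 2867 to 16766 and 14459.5 CPM in MYOD-/- EV and from 3367 and 5039.6 to 15993 and 11565 CPM in MYOD-/- ov MUNC. DM lay above GM in every line without overlap, and the lowest DM library was replicate 2 of WT EV. The changes were 1.52 ± 0.27, 2.37 ± 0.28, 2.44 ± 0.28 and 1.71 ± 0.27 in that order (adjusted p from 7e-05 to 0.0014). Fbn1, the fibrillin of microfibrils, rose by 1.32 ± 0.24 in WT ov MUNC (adjusted p = 0.00132) and by 1.67 ± 0.24 in MYOD-/- EV (adjusted p = 0.000296). In MYOD-/- ov MUNC its change of 1.02 ± 0.24 (adjusted p = 0.00508) was not called without MYOD-/- ov MUNC DM replicate 1 (adjusted p = 0.0668). In WT EV it was 0.38 ± 0.24 (adjusted p = 0.229).

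Among matricellular proteins, Postn (periostin, chr3:54359267-54391041) was at 57 and 6.92 CPM in GM and 786 and 184 CPM in DM in WT EV, and at 11.5 and 2.33 and then 184 and 114 CPM in WT ov MUNC. It was at 99.6 and 13.6 and then 1713 and 784 CPM in MYOD-/- EV, and at 92.5 and 15.8 and then 1881 and 1066 CPM in MYOD-/- ov MUNC. The media did not overlap in any line, and within each group replicate 1 lay above replicate 2. The average change was 4.40 ± 0.68 (adjusted p = 0.000148), with 4.06 and 5.56 within replicates 1 and 2. The 4 calls within lines (adjusted p from 0.0162 to 0.0383) were each lost without GM replicate 2, and without DM replicate 1, of the line, with adjusted p from 0.0566 to 0.209. Sparc rose by 1.39 ± 0.21 on average (adjusted p = 0.000113) and Thbs1 by 0.57 ± 0.15 (adjusted p = 0.00621).

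Tnc (tenascin-C, chr4:63959785-64047015) and Thbs2 (thrombospondin 2, chr17:14665500-14694262) fell in WT-labelled cells. Tnc was at 676 and 872 CPM in GM and 213 and 214 CPM in DM in WT EV, and at 153 and 86.7 and then 69.8 and 42.5 CPM in WT ov MUNC. It was at 695 and 1092 and then 1077 and 1050.0 CPM in MYOD-/- EV, and at 867 and 1589 and then 947 and 948 CPM in MYOD-/- ov MUNC. DM lay below GM without overlap in both WT-labelled lines, and the media overlapped in both others. The change was -1.86 ± 0.36 in WT EV (adjusted p = 0.00201) and -1.10 ± 0.35 in WT ov MUNC (adjusted p = 0.0275), the latter not called without WT ov MUNC GM replicate 1 (adjusted p = 0.234) or WT ov MUNC DM replicate 2 (0.185). In the MYOD-/- lines it was 0.25 ± 0.34 (adjusted p = 0.584) and -0.37 ± 0.35 (adjusted p = 0.404). Thbs2 was at 442 and 475 CPM in GM and 214 and 238 CPM in DM in WT EV, and at 118 and 120.0 and then 80.5 and 71.1 CPM in WT ov MUNC. It was at 352 and 526 and then 487 and 494 CPM in MYOD-/- EV, and at 378 and 564 and then 553 and 577 CPM in MYOD-/- ov MUNC. Its media, too, separated in the WT-labelled lines and overlapped in both others. Thbs2 fell by 1.02 ± 0.20 in WT EV (adjusted p = 0.00252). Its change in WT ov MUNC was -0.65 ± 0.20 (adjusted p = 0.0248), not called without WT ov MUNC GM replicate 1 (adjusted p = 0.0714), WT ov MUNC GM replicate 2 (0.0843), WT ov MUNC DM replicate 1 (0.0588) or WT ov MUNC DM replicate 2 (0.134). In the MYOD-/- lines it was 0.16 ± 0.20 (adjusted p = 0.55) and 0.26 ± 0.20 (adjusted p = 0.312).

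The proteoglycans Lum and Dcn had the largest average changes of the 39, ahead of Postn, Col6a2 and Col6a1. Dcn (decorin) and Lum (lumican), which bind collagen fibrils and limit their width, lie close together on chromosome 10 (chr10:97479500-97518163 and chr10:97565501-97572703). Dcn went from 9.98 and 1.81 to 337 and 76.1 CPM in WT EV and from 2.93 and 0.415 to 567 and 214 CPM in WT ov MUNC. It went from 4.95 and 0.852 to 742 and 320.0 CPM in MYOD-/- EV and from 4.8 and 0.84 to 938 and 434 CPM in MYOD-/- ov MUNC. DM was above GM without overlap in each line, and replicate 1 was over 2-fold above replicate 2 in all 8 groups. The changes were 5.13 ± 1.33, 7.85 ± 1.51, 7.52 ± 1.49 and 7.91 ± 1.51 (adjusted p from 0.00159 to 0.0106). That of WT EV was not called without WT EV GM replicate 2 (adjusted p = 0.0795) or WT EV DM replicate 1 (0.0615).

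Lum was at 0.243 and 0 CPM in GM and 1.27 and 0.136 CPM in DM in WT EV, and at 0.111 and 0 and then 10.6 and 3.41 CPM in WT ov MUNC. It was at 0.187 and 0.0251 and then 201 and 55.5 CPM in MYOD-/- EV, and at 0.26 and 0 and then 213 and 42.3 CPM in MYOD-/- ov MUNC. Levels above 40 CPM were thus found only in the 4 DM libraries of the MYOD-/- lines. The fitted changes there were 10.24 ± 1.68 and 9.82 ± 1.58 (adjusted p = 0.000656 and 0.000577). With 0 to 17 counts in each GM library, their size depends on the fit's prior count. In WT ov MUNC the change of Lum was 6.84 ± 1.66 (adjusted p = 0.00721), not called without WT ov MUNC GM replicate 2. In WT EV it was 2.47 ± 1.62 (adjusted p = 0.257) in the fit without a replicate block, and it was called with the block (adjusted p = 0.00697).

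Prg4 (lubricin, the joint lubricant, chr1:150449412-150466221) was below 1.6 CPM in every library except those of WT ov MUNC in DM, which had 32.6 and 28.7 CPM after 0.649 and 0.795 CPM in GM. That change was 5.41 ± 0.47 (adjusted p = 2.05e-05). In WT EV Prg4 was at 0.323 and 0.458 CPM in GM and 0.154 and 0.0679 CPM in DM (-1.76 ± 0.53, adjusted p = 0.0225), not called without WT EV GM replicate 2 (adjusted p = 0.121) or WT EV DM replicate 2 (0.13), nor by limma on log2(TPM + 1) (adjusted p = 0.52). Bgn rose by 1.19 ± 0.20 in WT ov MUNC (adjusted p = 0.00087), where it reached 4182 and 3484 CPM. Vcan (versican, the large hyaluronan-binding proteoglycan) was called only in WT EV (1.01 ± 0.32, adjusted p = 0.0263), and not without WT EV GM replicate 1 (adjusted p = 0.0777), WT EV GM replicate 2 (0.131) or WT EV DM replicate 1 (0.187).

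Of the lysyl oxidases, Loxl1 rose by 1.22 ± 0.17 on average (adjusted p = 7.18e-05) and Lox, the founding member, fell by 0.65 ± 0.12 (adjusted p = 0.000479). Lox was at 1012 and 1017 CPM in GM and 579.7 and 359 CPM in DM in WT EV, and at 1278 and 1088 and then 1215 and 1107 CPM in WT ov MUNC. The media separated in WT EV (-1.11 ± 0.24, adjusted p = 0.00386) and overlapped in WT ov MUNC (-0.03 ± 0.24, adjusted p = 0.942). Lox was not called in MYOD-/- EV. Its call in MYOD-/- ov MUNC was lost without GM replicate 2 or DM replicate 1 of that line, and with limma on log2(TPM + 1) (adjusted p = 0.0763). The call of Loxl1 in WT ov MUNC was lost whichever library of that line was left out. Without a replicate block, Loxl2 and Loxl3 did not pass in any line or on average.

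Of the proteinases, Mmp14, the membrane-bound collagenase that activates pro-MMP2, rose from 169 to 384 CPM in GM to 504 to 974 CPM in DM over all lines, by 1.32 ± 0.13 on average (adjusted p = 4.88e-06). Mmp2 (gelatinase A, chr8:92827290-92853421) went from 25.8 and 11 to 113 and 78.8 CPM in WT EV and from 7.63 and 1.9 to 38.9 and 23.1 CPM in WT ov MUNC. It went from 123 and 51.8 to 746 and 639 CPM in MYOD-/- EV and from 123 and 64.5 to 935 and 674 CPM in MYOD-/- ov MUNC. DM lay above GM without overlap in each line, and the MYOD-/- lines lay above the WT-labelled lines in each medium. Its changes were 2.38 ± 0.65, 2.69 ± 0.66, 2.99 ± 0.66 and 3.10 ± 0.66 (adjusted p from 0.00309 to 0.0134), that of WT EV not called without WT EV GM replicate 2 (adjusted p = 0.108) or WT EV DM replicate 1 (0.0619). The calls of Mmp14 held whichever library was left out, except that of WT EV without WT EV GM replicate 2 (adjusted p = 0.0617).

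The inhibitors went both ways. Timp1, which binds MMPs in solution, fell in 3 lines, with changes of -1.07 ± 0.18 in WT EV, -1.09 ± 0.18 in MYOD-/- EV and -1.16 ± 0.18 in MYOD-/- ov MUNC (adjusted p from 0.000505 to 0.00103), and its change in WT ov MUNC was -0.28 ± 0.18 (adjusted p = 0.239). Timp2, which also docks pro-MMP2 to Mmp14, rose by 1.34 ± 0.30 in MYOD-/- ov MUNC (adjusted p = 0.00371) and by 0.65 ± 0.15 on average (adjusted p = 0.00203). Timp3, the matrix-bound inhibitor, was at 371 and 818 CPM in GM in WT ov MUNC, the highest mean of the 8 groups, and those libraries overlapped with replicate 2 of both MYOD-/- lines in GM. It changed by -1.36 ± 0.34 on average (adjusted p = 0.00417), with -0.32 and -2.22 within replicates 1 and 2. In WT EV the replicates went opposite ways, from 59.8 and 125 CPM in GM to 188 and 57.6 CPM in DM. Within lines Timp3 was called only in MYOD-/- EV and MYOD-/- ov MUNC. Both calls were lost when some single libraries were left out, and with limma on log2(TPM + 1) (adjusted p = 0.0931 and 0.0611).

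**Figure D3:**
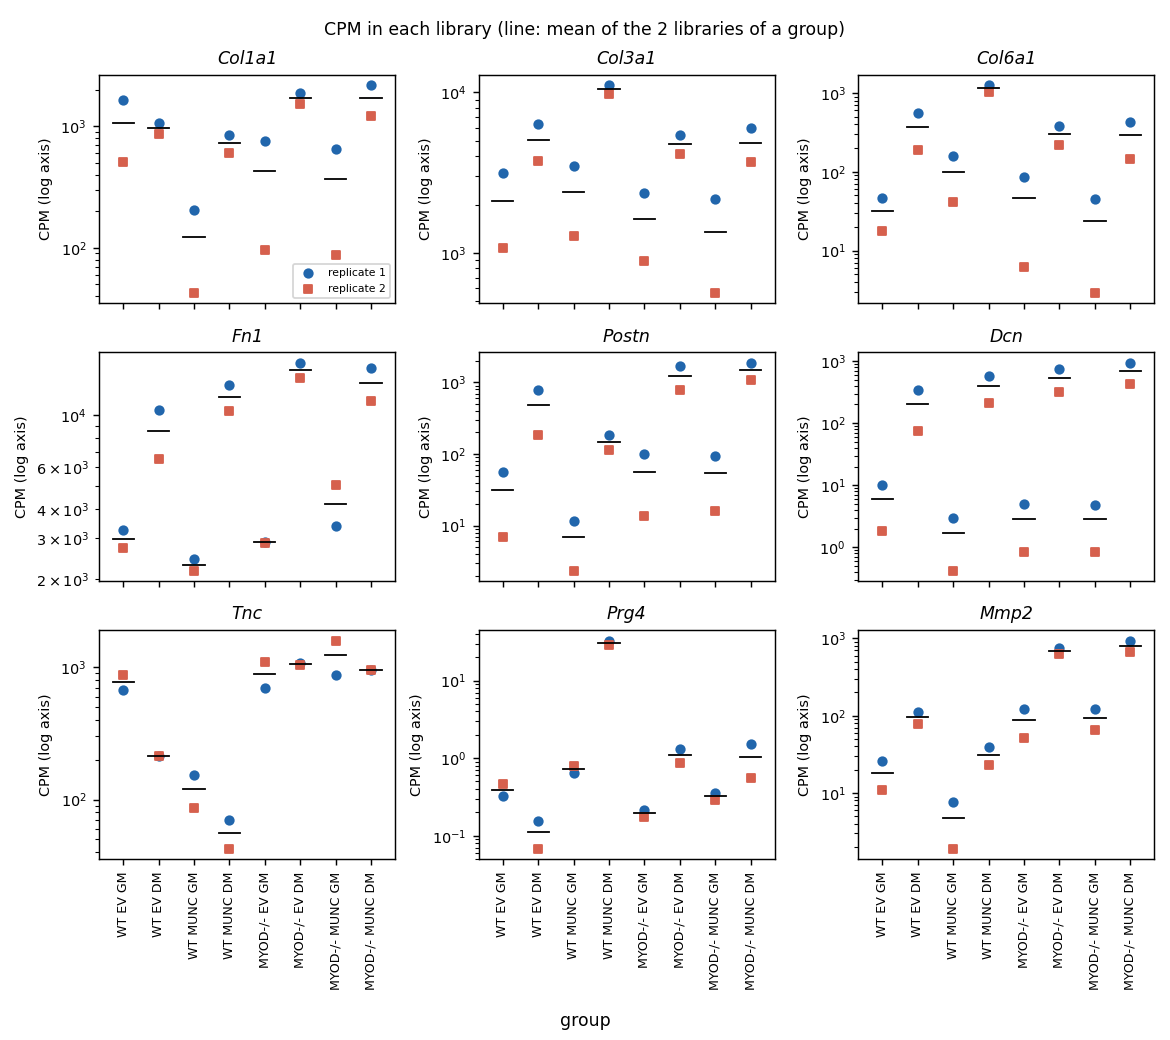
CPM on a log axis of 9 genes in each library, with circles for replicate 1, squares for replicate 2 and a line for the mean of the 2 libraries of a group. Squares lie below circles in all 4 GM groups of Col1a1, Col3a1, Col6a1, Postn and Dcn, Prg4 stands above 28 CPM only in WT ov MUNC in DM, and Tnc is lowest in WT ov MUNC.

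The genotype labels were compared as MYOD-/- minus WT with the same vector and medium. In GM with EV, Mmp2 was called higher and Fbn1, Bgn and Loxl3 lower, so 1 member was higher and 3 lower, against 10.4% of all genes called (4.58% higher and 5.77% lower). In GM with MUNC, 4 were higher (Col7a1, Tnc, Thbs2 and Mmp2) and 3 lower (Col6a3, Bgn and Loxl3), against 9.99% (4.98% and 5.02%). In DM with EV, 12 were higher and 1 lower (Col18a1), against 31.4% (15.3% and 16.1%, or 2527 and 1710 genes with limma on log2(TPM + 1)). In DM with MUNC, 4 were higher and 9 lower, against 22.7% (12.8% and 9.89%). With EV in GM, 0 or 1 were called whichever of the 4 libraries was left out. Mmp2 was not called there without WT EV GM replicate 1 (adjusted p = 0.0779), WT EV GM replicate 2 (0.265) or MYOD-/- EV GM replicate 1 (0.233), and Loxl3 not without WT EV GM replicate 2 (adjusted p = 0.0787), MYOD-/- EV GM replicate 1 (0.0597) or MYOD-/- EV GM replicate 2 (0.0824), while Fbn1 and Bgn were lost without each of the 4 (adjusted p of at least 0.107 and 0.0963). With EV in DM, 4 were called without WT EV DM replicate 2, 6 without MYOD-/- EV DM replicate 1 and 7 without its replicate 2. With MUNC, 3 were called in GM without WT ov MUNC GM replicate 2, 4 without MYOD-/- ov MUNC GM replicate 2, and 7 in DM without MYOD-/- ov MUNC DM replicate 2. Tnc, Thbs2 and Mmp2 in GM with MUNC, Tnc, Thbs2, Lum and Prg4 in DM with EV, and Tnc, Thbs2, Mmp2, Prg4, Lox and Bgn in DM with MUNC were called whichever library was left out, and each other call was lost without at least 1 library.

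Mmp2, Tnc and Thbs2 were far higher in the MYOD-/- line than in the WT line where both held the MUNC vector. The values by library are those given above, and the groups did not overlap. Mmp2 was higher by 4.29 ± 0.71 in GM and 4.70 ± 0.71 in DM (adjusted p = 0.00329 and 0.000843), and by 2.85 ± 0.65 with EV in DM (adjusted p = 0.00741). The last was not called without WT EV DM replicate 2 (adjusted p = 0.0683). Tnc was higher by 3.35 ± 0.38 in GM and 4.08 ± 0.39 in DM with MUNC (adjusted p = 0.000321 and 3.69e-05), and by 2.32 ± 0.36 with EV in DM (adjusted p = 0.000802). Thbs2 was higher by 1.99 ± 0.21, 2.90 ± 0.22 and 1.12 ± 0.20 in the same 3 comparisons (adjusted p = 0.000194, 7.9e-06 and 0.00199). In GM with EV neither Tnc nor Thbs2 passed (adjusted p = 0.782 and 0.898).

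Lum and Prg4 were higher with the MYOD-/- label in DM with EV, by 7.46 ± 1.34 and 3.24 ± 0.50 (adjusted p = 0.00185 and 0.000766). With MUNC in DM, Prg4, Lox and Bgn were lower in the MYOD-/- line, with differences of -4.90 ± 0.45, -1.68 ± 0.24 and -1.59 ± 0.20 (adjusted p = 2.84e-05, 0.00059 and 0.00025). The differences of Col12a1 and Vcan were -3.56 ± 0.71 and -1.57 ± 0.32 (adjusted p = 0.00435 and 0.005). Neither was called without MYOD-/- ov MUNC DM replicate 2 (adjusted p = 0.054 and 0.0571). These comparisons share libraries with those of MUNC against EV and with the changes with medium, so their values are given side by side.

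MUNC was compared with EV within each label and medium. In WT-labelled cells in GM, 2 members were higher and 2 lower, against 13.8% of all genes called (6.04% higher and 7.71% lower). In DM 11 were higher and 4 lower, against 33.3% (15.6% and 17.7%). In GM 2 were called without WT EV GM replicate 1, and 2 without its replicate 2. In MYOD-/- labelled cells no member and no other gene was called by edgeR in either medium (0% of all genes). At an unadjusted p below 0.05 there were 1 member in GM and 0 in DM. DESeq2 called 0 members in both media, and 0 genes in GM and 4 in DM overall. The fitted changes of members ranged there from -1.81 to 1.60 in GM and from -0.89 to 0.92 in DM. A difference of the MUNC effect between labels was not tested, and MUNC itself was lower in MYOD-/- ov MUNC, as given above.

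In WT-labelled cells in DM, several associated collagens and proteoglycans were higher with MUNC. Prg4 stood at 32.6 and 28.7 CPM against 0.154 and 0.0679 CPM with EV (8.05 ± 0.55, adjusted p = 2.12e-06). Col12a1 stood at 1106 and 1016 CPM against 47.6 and 23.4 CPM (4.90 ± 0.75, adjusted p = 0.000563). Col8a2, the second chain of collagen VIII, stood at 1.98 and 1.75 CPM against 0.011 and 0.0136 CPM, the latter from 1 count in each library, so no fold is given (adjusted p = 0.00309). In each case the groups did not overlap. Col6a3 was higher by 1.66 ± 0.32, Col16a1 by 1.61 ± 0.26, Lox by 1.31 ± 0.24 and Bgn by 1.06 ± 0.20 (adjusted p from 0.000785 to 0.00222). These calls held whichever of the 4 libraries was left out, while those of Col8a1, Fbn1, Timp1 and Timp2 were each lost without WT EV DM replicate 2 (adjusted p = 0.0573, 0.148, 0.139 and 0.118) or WT ov MUNC DM replicate 1 (0.067, 0.201, 0.0903 and 0.087), and that of Fbn1 also without WT EV DM replicate 1 (0.0873). Col7a1 and Col11a1 were lower (-1.16 ± 0.40 and -3.08 ± 0.99, adjusted p = 0.0426 and 0.0334). Col7a1 was not called by limma on log2(TPM + 1) (adjusted p = 0.252), nor without WT EV DM replicate 2 or WT ov MUNC DM replicate 2. Col11a1 had 4 counts in each WT ov MUNC DM library against 59 and 21 in WT EV, so the size of its change is uncertain. It was not called without WT EV DM replicate 1, WT ov MUNC DM replicate 1 or WT ov MUNC DM replicate 2.

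Tnc and Thbs2 were lower with MUNC in WT-labelled cells in both media. The differences of Tnc were -2.69 ± 0.37 in GM and -1.93 ± 0.36 in DM (adjusted p = 0.000683 and 0.00187), and those of Thbs2 -1.95 ± 0.21 and -1.58 ± 0.21 (adjusted p = 0.000141 and 0.000195). In MYOD-/- labelled cells the changes of Tnc were 0.46 ± 0.35 and -0.17 ± 0.34, and those of Thbs2 0.10 ± 0.20 and 0.20 ± 0.20. In GM, Vcan was higher with MUNC in WT-labelled cells (397 and 379 against 146 and 131 CPM, 1.48 ± 0.32, adjusted p = 0.0108) but not called without WT EV GM replicate 1 (adjusted p = 0.0583) or WT EV GM replicate 2 (0.0781). Timp3 was higher by 2.69 ± 0.71 (adjusted p = 0.0292), not called without WT EV GM replicate 1 (adjusted p = 0.192), WT EV GM replicate 2 (0.0696) or WT ov MUNC GM replicate 2 (0.167).

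**Figure D4:**
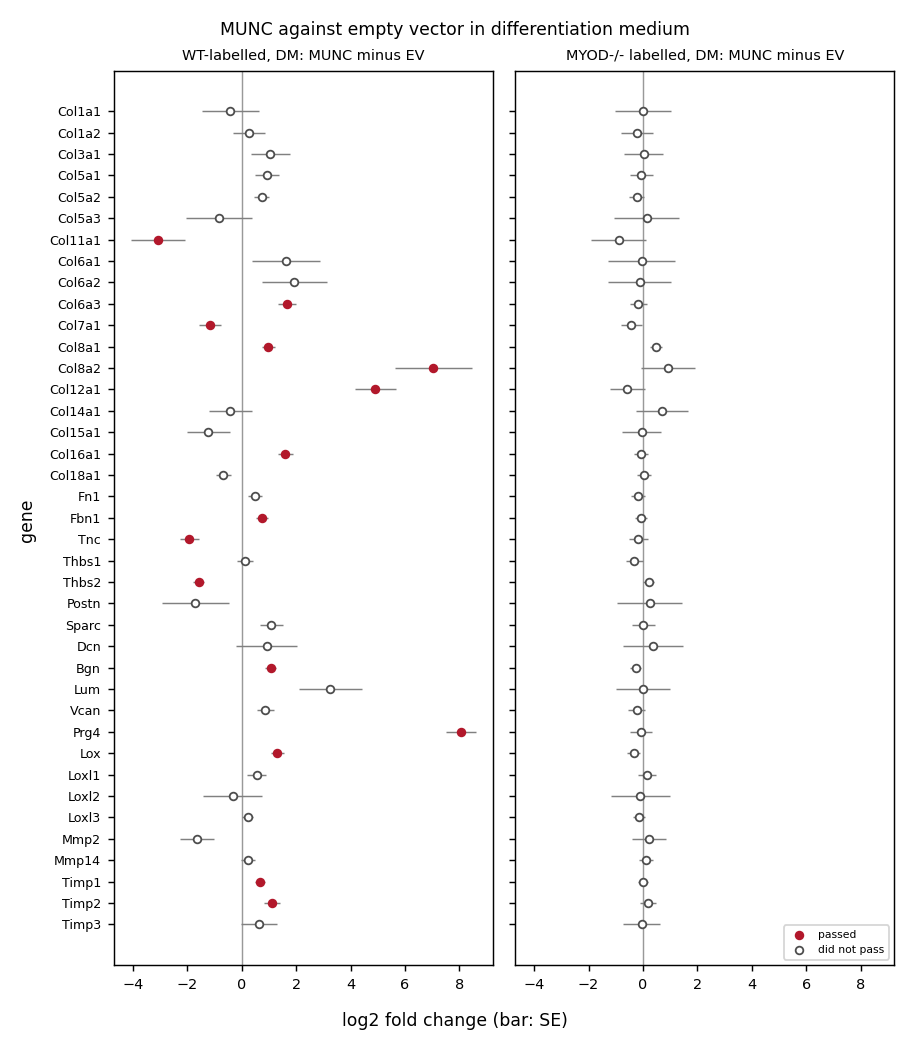
Log2 fold change, MUNC minus EV in DM, for the 39 tested genes in WT-labelled (left) and MYOD-/- labelled (right) cells, with bars for the SE and filled points for an adjusted p below 0.05. On the left Prg4, Col8a2 and Col12a1 lie farthest to the right, and on the right all points lie between -0.89 and 0.92.

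Differences between lines in the change with medium were tested as interactions. With EV, Prg4 and Tnc were called, 2 members with a positive difference, against 2.58% of all genes (1.66% positive and 0.922% negative). With MUNC, 1 was called with a negative difference, Prg4, against 1.38% (1.24% and 0.14%). For MUNC in WT-labelled cells 3 were called with a positive difference, Prg4, Col16a1 and Col8a1, against 3.33% (1.24% and 2.09%). For MUNC in MYOD-/- labelled cells edgeR called 0 members and 0 genes, with 0 members at an unadjusted p below 0.05 and 0 genes by DESeq2. The difference of Prg4 between the vectors in WT-labelled cells (7.17 ± 0.69, adjusted p = 0.000315) was called whichever of its 8 libraries was left out. The others were each lost without at least 3 single libraries, as given in the closing section.

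Replicates of a group differed in these genes in a common direction. In GM, 9 of the 39 members (23.1%) had replicate 1 over 2-fold above replicate 2 in all 4 groups, against 1.05% of all genes tested. These were Col1a1, Col3a1, Col5a3, Col6a1, Col6a2, Postn, Dcn, Lum and Loxl2. In DM they were Dcn and Lum (5.13%, against 0.1%). Replicate 1 was above replicate 2 by any amount in all 4 DM groups in 25 of 39 (64.1%, against 9.89% of all genes). Col6a1, for example, was at 86.7 and 6.24 CPM in the GM replicates of MYOD-/- EV and 45 and 2.88 CPM in those of MYOD-/- ov MUNC. The labels do not say what the replicate numbers stand for, and Zrsr1 separates the same libraries. All 164 called pairs of a member and a comparison had the same sign within replicate 1 and within replicate 2, which passing the test makes likely.

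Fn1 and Vcan are spliced into forms that differ in binding, and kallisto divides a gene's fragments among its RefSeq transcripts. The share of Fn1 TPM in the 4 of 7 transcripts with the EDA exon (270 bases, chr1:71603660-71603929, minus strand), which marks cellular fibronectin, was 72.1% and 70.4% in WT EV in GM and 55% and 73.5% in DM. It was 62.3% and 62.3%, then 50.3% and 46.3%, in WT ov MUNC. It was 74.2% and 74.9%, then 60.3% and 57.7%, in MYOD-/- EV, and 73.9% and 74.8%, then 65% and 66.2%, in MYOD-/- ov MUNC. DM lay below GM in all but the second replicate of WT EV. The share with the EDB exon (273 bases, chr1:71613763-71614035, in 1 of 7 transcripts) was 20.4% to 26.3% in WT ov MUNC, 27.3% to 38.2% in WT EV and 37.2% to 48.2% in the MYOD-/- lines. With 2 libraries a group and transcripts that share most of their sequence, these shares are given without a test.

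The long form of versican carries both glycosaminoglycan-bearing exons, GAG-alpha (2880 bases, chr13:89702918-89705797) and GAG-beta (5217 bases, chr13:89688285-89693501). Its share of Vcan TPM was 36.7% to 46.5% in the GM libraries of WT ov MUNC and the MYOD-/- lines, and 12.5% to 22.1% in the DM libraries of all 4 lines. In WT EV it was 16.8% and 20.9% in GM and 16.9% and 12.5% in DM, where the media overlapped. In the other 3 lines the media did not overlap.

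**Figure D5:**
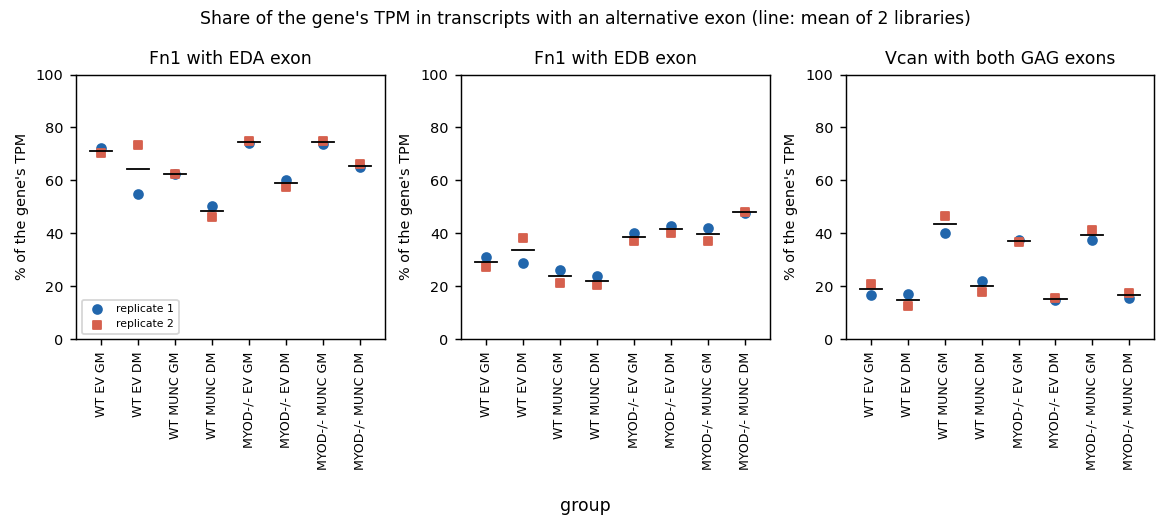
Share of a gene's TPM, in percent, in transcripts with the Fn1 EDA exon, the Fn1 EDB exon or both Vcan GAG exons, in each library, with circles for replicate 1, squares for replicate 2 and lines for group means. The EDA share is lower in DM than in GM except in 1 library of WT EV, and the share of long Vcan is 12.5% to 22.1% in DM in all 4 lines and, in GM, 16.8% and 20.9% in WT EV and at least 36.7% in the other 3 lines.

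Other genes of the pathway came from 4 further lists. Of 27 genes of collagen folding and processing, 24 were tested, and 10 rose and 4 fell on average over the lines (36.3% and 30.4% of all genes). Adamts2, which trims procollagen, rose by 2.35 ± 0.33 (adjusted p = 7.31e-05), from 2.27 ± 1.97 CPM in GM to 19.6 ± 7.44 CPM in DM in MYOD-/- EV (SD, n = 2). Pcolce2, an enhancer of procollagen trimming at the C-terminal end, and the lysyl oxidase Loxl4 fell, with changes of -2.54 ± 0.22 and -1.14 ± 0.11 (adjusted p = 1.63e-06 and 2.56e-06). Of 13 tested genes of the elastic fibre and microfibrils, 7 rose and 3 fell, with Efemp1 (fibulin 3) higher by 3.79 ± 0.52 (adjusted p = 5.55e-05) and Ltbp4, a latent TGF-beta binding protein, by 1.49 ± 0.10 (adjusted p = 1.38e-07).

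Of 19 tested other proteoglycans and matricellular proteins, 5 rose and 6 fell on average over the lines, against 36.3% and 30.4% of all genes. Aspn (asporin) and Ogn (osteoglycin), small leucine-rich proteins like decorin, rose by 3.22 ± 0.75 and 2.75 ± 0.76 (adjusted p = 0.00259 and 0.00702), and Ccn1 and Ccn2 fell, with changes of -1.57 ± 0.28 and -1.19 ± 0.35 (adjusted p = 0.000362 and 0.01). Of 20 tested other proteinases and uptake genes, 14 rose and 3 fell, against the same shares of all genes. Adamts4 and Adamts5, which cut aggrecan and versican, rose by 3.99 ± 0.38 and 2.60 ± 0.50 (adjusted p = 2.75e-06 and 0.000733). The medians of the 4 lists were 0.20, 0.56, 0.26 and 1.30, against 1.02 for the 39 members and 0.07 for all genes tested.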

How the data were processed

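Per the labels' protocols, poly(A) RNA was purified with RNeasy columns, turned into libraries with NEBNext Ultra Directional reagents, and sequenced as pairs of 75-base reads. The genome build mm10, bcl2fastq and kallisto are named per the submitters' processing notes. Versions and kallisto's strand setting are not stated there, so reads of a gene and of an antisense partner may not be separated. The authors deposited 1 table per library with the estimated count and the TPM of each of 35818 transcripts, both made by kallisto per the file headers.

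Transcripts were assigned to genes through RefSeq (35492) or GENCODE M21 (188), while the other 138, holding 0.28% to 0.941% of counts, have no symbol and were dropped. Sums of estimated counts over a gene's transcripts were rounded to whole numbers. Using R 4.3.3, edgeR 4.0.16 (TMM, filterByExpr, quasi-likelihood F test, Benjamini-Hochberg over 14972 genes, threshold 0.05) was fitted to all 16 libraries with a mean per group, with 8 residual degrees of freedom and a common dispersion of 0.0474. Differences within a replicate number used log2(CPM + 0.05). Tested on simulated counts for the change with medium in WT EV (14972 genes, 200 changed), the fit recovered 64% of 2-fold and 99% of 4-fold changes, and 5.78% of its calls were false. The simulation gave every other gene the same mean in all libraries and drew the libraries independently. In the data many more genes differed (5619 called in WT EV) and same-numbered libraries shared deviations, so these rates may not hold there.

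All 41 members could be named, and of other lists up to 3 called genes each way with a mean of at least 5 CPM, in the order of their change. A result for 1 gene of these lists is not reported here. Members and lists were chosen with earlier results of these data known. Samples were grouped by labels alone. The alternatives were DESeq2 1.42.0, its size factors in edgeR, no filter, a filter of 5 CPM in 2 libraries, limma 3.58.1 on log2(TPM + 1), a replicate block, leaving out each library, and, chosen after seeing the data, leaving out Zrsr1. Replicate numbers come from the titles, which do not say that a number marks a shared culture or day, and the fit with them as a block is given in the closing section.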

Additional observations from a re-analysis of the deposited data

Results flagged for a closer look

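In 6 cases a member's change with medium, or with MUNC, differed between lines by a test of the difference itself. Prg4 changed with medium by 4.23 more on the log2 scale in MYOD-/- EV than in WT EV (SE 0.74, edgeR adjusted p = 0.0179), and it was higher in DM in the first (0.214 and 0.175 then 1.3 and 0.874 CPM) and lower in the second (0.323 and 0.458 then 0.154 and 0.0679 CPM). It was not called without WT EV GM replicate 2 (adjusted p = 0.0763), WT EV DM replicate 2 (0.079), MYOD-/- EV GM replicate 2 (0.0826) or MYOD-/- EV DM replicate 1 (0.0781), nor by limma on log2(TPM + 1) (0.0988). These levels are close to what a few counts give, from 5 counts upward.

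With MUNC the sign was the opposite. The change of Prg4 was -3.74 in MYOD-/- ov MUNC relative to WT ov MUNC (edgeR adjusted p = 0.0166), and not called without WT ov MUNC GM replicate 1 (adjusted p = 0.0674), WT ov MUNC DM replicate 1 (0.0686) or WT ov MUNC DM replicate 2 (0.06). Between the vectors in WT-labelled cells the change of Prg4 differed by 7.17 (edgeR adjusted p = 0.000315). This was the 1 difference of the 6 that was called whichever library was left out.

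Tnc fell with medium in WT EV and did not pass in MYOD-/- EV, a difference of 2.11 (edgeR adjusted p = 0.0492) that was lost whichever of the 8 libraries was left out (adjusted p from 0.0784 to 0.175). In WT-labelled cells Col16a1 changed with medium by 1.59 more with MUNC than with EV (edgeR adjusted p = 0.0375), and was not called without WT EV GM replicate 1 (adjusted p = 0.11), WT EV GM replicate 2 (0.0595), WT EV DM replicate 2 (0.118), WT ov MUNC GM replicate 1 (0.0936), WT ov MUNC GM replicate 2 (0.12), WT ov MUNC DM replicate 1 (0.0796) or WT ov MUNC DM replicate 2 (0.136). Col8a1 differed by 1.37 (edgeR adjusted p = 0.0474) and was lost whichever of its 8 libraries was left out (adjusted p from 0.0785 to 0.185). Causes were not tested.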

How the results depend on the processing

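Of 164 pairs of a member and a comparison that were called, 0 changed direction under the alternatives run, and 88 were called whichever library was left out. Under every alternative that kept all libraries and tested the pair, 140 were called. The filter of 5 CPM and limma each tested only 156 of the 164, so pairs they did not test can be among the 140. DESeq2 ended 3 calls, its size factors in edgeR 4, no filter 3, leaving out Zrsr1 5, the filter of 5 CPM 3 of 156, limma on log2(TPM + 1) 18 of 156 and the replicate block 0. For the genotype label in GM, 4 members were called with EV (7 with the replicate block) and 7 with MUNC (13 by DESeq2, 16 with the block). For MUNC in WT-labelled cells, 4 were called in GM (7 by DESeq2, 11 with the block) and 15 in DM (25 with the block). Of the interactions, genotype by medium had 2 calls with EV (7 by DESeq2, 10 with the block, and 1 each with DESeq2's size factors, with 5 CPM and without Zrsr1) and 1 with MUNC (2 by DESeq2). MUNC by medium in WT-labelled cells had 3 (6 by DESeq2 and 6 with the block). The causes were not tested.

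With 1 library left out, 7 to 13 members were called in WT EV on differentiation, 10 to 13 in WT ov MUNC, 10 to 24 in MYOD-/- EV and 10 to 26 in MYOD-/- ov MUNC. For the genotype label it was 0 to 1 (EV, GM), 4 to 12 (EV, DM), 3 to 10 (MUNC, GM) and 7 to 11 (MUNC, DM), and for MUNC in WT-labelled cells 2 to 5 in GM. For genotype by medium it was 0 to 1 with EV and 0 to 2 with MUNC, and for MUNC by medium in WT-labelled cells 1 to 4. A group then holds 1 library, which is assumed to vary like the other groups. Of all genes, 387 were called for genotype by medium with EV (508 higher and 489 lower by DESeq2, 544 and 277 by limma, 571 and 327 with the block), 206 with MUNC (376 and 126, 383 and 69, 311 and 77), and 499 for MUNC by medium in WT-labelled cells (474 and 681 by DESeq2, 486 and 547 with the block). In GM the block gave 1051 and 1354 genes for the genotype label with EV (1550 without it) and 1107 and 1272 with MUNC (1496). Limma on log2(TPM + 1) gave 2 members higher and 1 lower for the genotype label with EV in GM and 4 and 1 with MUNC in GM. With MUNC in GM DESeq2 gave 5 and 8, and no filter, or leaving out Zrsr1, 4 and 5. Depth limits Prg4, Lum, Col8a2 and the 5 genes below 0.7 CPM most, where a few counts set a level.

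The replicate block added 85 calls to the 164. On differentiation it called 12 members higher and 9 lower in WT EV (8 and 7 without it), 22 and 5 in WT ov MUNC (15 and 4), 24 and 4 in MYOD-/- EV (15 and 4) and 21 and 5 in MYOD-/- ov MUNC (14 and 5). Col3a1 then passed in 4 lines (1 without it) and Col6a1 in 4 (0 without it, added calls at adjusted p = 0.00155 to 0.00431). Col1a1, Col1a2, Col5a1 and Col5a3 passed in 3 each and Col5a2 in 2, against 0 without it. Lum passed in 4 lines (3 without it). With the block Lum was also called higher with MUNC in WT-labelled cells in DM (adjusted p = 4.3e-05, against 0.0501 without it). Deviations of same-numbered libraries from their group means correlated with a median r of 0.255 over 28 pairs of groups, at 0.508 to 0.712 in the 6 pairs within GM, 0.0955 to 0.374 in the 6 within DM and -0.0126 to 0.348 in the 16 across media. Of the 28, 23 were over 0.1, and the other 5 all involved MYOD-/- ov MUNC in DM. The libraries thus share part of their deviations by number, most within GM. The numbers were not taken as pairs, since this did not hold for every pair and no label says what a number marks.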

Other observations

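Chains of 1 collagen were set side by side per length, as ratios of TPM within a library, with no test. Col1a1 over Col1a2, which pair as 2 to 1 in the collagen I protein, ranged from 0.0369 to 0.775 over the 16 libraries, and was lowest in the libraries of WT ov MUNC in GM (0.0956 and 0.0369). Col6a1 over Col6a2 ranged from 1.67 to 6.69. Col6a3 over Col6a1 was 2.33 to 57.8 in GM and 0.266 to 0.841 in DM, without overlap, and within every GM group it was higher in replicate 2, up to 57.8 against 3.9 in MYOD-/- ov MUNC. Mmp14 over its partner Timp2 was 1.14 and 1.33 in WT EV in DM and 0.204 to 0.668 in the other 14 libraries.

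Of the 3 Lox transcripts, the one of 4494 bases took 23.2% to 45.4% of the gene's TPM in the replicate 1 libraries. In replicate 2 it took 9.63% to 19.9%, except in MYOD-/- ov MUNC in DM, where it took 43.4%. Transcripts of 1 gene share most of their sequence, so these shares rest on few bases.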
